A study of Mus musculus with 4 samples.

Results

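The 6 genes described here, Nes, Prom1, Msi1, Msi2, Fut4 and Fabp7, are used to recognise neural stem cells and their radial glial relatives. They were chosen by name and read from the probe sets whose only annotated gene symbol was theirs. All 6 of 19938 named genes were found, each with 1 such probe set. The measurements came from 4 mouse arrays of total RNA, 1 for each sample. There was 1 medulloblastoma of a PtchLacZ/+ mouse aged 5 months, 1 of a Math1-Cre;SmoM2 mouse aged 2 months, 1 of a Math1-Cre;SmoM2 mouse aged 1 month, and the whole cerebellum of 1 wild-type mouse aged 2 months. All mice shared a mixed background of the C57BL/6 and C3H strains. In Math1-Cre;SmoM2 mice the Math1 (Atoh1) lineage expresses an active form of Smoothened, the Hedgehog signal transducer. PtchLacZ/+ mice carry a lacZ allele of the Hedgehog receptor gene Ptch1 in every cell. The labels do not say whether a sample held tissue of several animals. The p-values rest on the spread between tumours, to which the single cerebellum adds nothing. In that spread, differences of age, tumour model, animal and technique cannot be told apart.

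Neural stem cells of the embryo are radial glia, long cells that span the wall of the neural tube and give rise to neurons and later to astrocytes. In the cerebellum, granule neuron progenitors form a dividing layer under Hedgehog control after birth, and Bergmann glia keep some radial glial features into adulthood. Nes encodes nestin, an intermediate filament protein of neural progenitors that dividing vessel cells also make. Fabp7 encodes brain lipid-binding protein, a fatty acid carrier of radial glia. Msi1 and Msi2 encode the Musashi proteins, which bind transcripts and control their translation. Prom1 encodes prominin-1 (CD133), a membrane protein of cell protrusions. Fut4 encodes a fucosyltransferase that can make the Lewis x carbohydrate, known on cell surfaces as CD15 or SSEA-1. In mouse Patched-mutant medulloblastoma, sorting for CD15 rather than for prominin-1 has been used to enrich cells that transplant the tumour.

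Markers of the labelled tissues were read first. Of 10 granule neuron progenitor markers 8 were higher in the tumours at limma's adjusted p under 0.05. Of 9 mature cerebellar neuron markers 5 were lower at that threshold. The tumour average lay below the cerebellum for every marker of the mature list, by differences of -5.57 to -1.45 in log2 units. The largest falls, those of Gabra6 (-5.57) and Calb1 (-5.11), did not pass. The mean level of the progenitor list was 11.42 in the PtchLacZ/+ tumour, 10.94 and 11.15 in the SmoM2 tumours at 2 months and 1 month, and 7.39 in the cerebellum, on the log2 scale used for every level below. The mean level of the mature neuron list was 6.62, 8.26 and 8.37 in the same tumours and 11.81 in the cerebellum. There were no detection calls to go by. The lower quartile of an array's named genes was 5.14, 5.17 and 5.16 in the tumours and 5.09 in the cerebellum, and levels beneath it are not shown to be above background. In bulk tissue, fewer cells of a type and less RNA per cell cannot be told apart.

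The upstream sequences of the members with the largest difference in each direction, Nes and Prom1, are shown because Prom1 has 2 annotated starts that the array does not separate. They are the 250 bases before each start from RefSeq (GRCm38.p6), with capitals for a match to an E-box (CANNTG) or to the RBPJ motif (TGGGAA) on either strand.
Nes (chr3:87970843-87971092, plus strand): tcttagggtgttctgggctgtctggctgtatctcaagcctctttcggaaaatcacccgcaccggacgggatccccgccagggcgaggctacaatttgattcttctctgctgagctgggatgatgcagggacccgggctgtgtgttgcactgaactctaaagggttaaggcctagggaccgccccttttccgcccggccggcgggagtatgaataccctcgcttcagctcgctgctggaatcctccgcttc
Prom1, upstream start (chr5:44101737-44101986, minus strand): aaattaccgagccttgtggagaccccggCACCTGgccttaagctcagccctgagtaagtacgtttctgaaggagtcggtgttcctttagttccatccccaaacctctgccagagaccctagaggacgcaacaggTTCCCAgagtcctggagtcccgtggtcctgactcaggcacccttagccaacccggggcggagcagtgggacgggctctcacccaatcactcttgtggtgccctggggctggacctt
Prom1, downstream start (chr5:44094769-44095018, minus strand): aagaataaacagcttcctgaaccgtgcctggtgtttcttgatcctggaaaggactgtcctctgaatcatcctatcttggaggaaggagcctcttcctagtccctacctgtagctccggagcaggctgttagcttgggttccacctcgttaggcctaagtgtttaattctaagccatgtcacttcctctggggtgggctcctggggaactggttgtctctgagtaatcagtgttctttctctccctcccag
The capitals in Prom1 mark CACCTG, an E-box, and TTCCCA, the RBPJ motif read on the other strand. Of 32851 windows of this length, 66.2% held an E-box, 21.6% the RBPJ motif and 0.225% the GLI motif GACCACCCA, on either strand. The motifs were chosen as those of the bHLH, Notch and Hedgehog pathway factors, and do not overlap at the matches shown. RefSeq windows were found for 5 of the 6 genes, 8 windows in all, of which those of Msi2 overlap. Of these, 6 held an E-box, 2 the RBPJ motif and 0 the GLI motif.

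The 3 tumours were compared with the cerebellum to ask whether the stem cell genes mark Hedgehog-driven medulloblastoma. Nes and Msi1 were higher in the tumours, and the other 4 genes did not pass the test. All 3 tumours lay above the cerebellum for Fabp7 and Fut4 and below it for Prom1 and Msi2, by differences that did not pass. The 2 called members of 6 stand beside 16.0% of all 19938 genes that passed at an adjusted p under 0.05, 6.70% as higher and 9.30% as lower. The median difference of the 6 genes was 0.53 on the log2 scale, and that of all genes was 0.04. The former lies between Fut4 (0.42), whose levels are not shown to be above background, and Fabp7 (0.64).

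The filament gene Nes had a level of 8.32 in the PtchLacZ/+ tumour, 9.09 in the 2-month and 8.61 in the 1-month SmoM2 tumour, and 5.64 in the cerebellum. All 3 tumours lay far above the cerebellum, with the 2-month SmoM2 tumour highest. The tumours averaged 8.67 ± 0.39 (SD, n = 3). Nes rose by 3.03 ± 0.33 on the log2 scale (limma standard error, adjusted p = 0.00742), or 8.17-fold, with a 95% interval of 2.19 to 3.87. It passed with any tumour left out (limma adjusted p = 0.000795 to 0.0139). The age-matched arrays, both at 2 months, differed by 3.44. The cerebellum's level was above the lower quartile of its array.

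Msi1, the Musashi gene of neural progenitors, was at 9.22 in the PtchLacZ/+ tumour, 8.95 in the 2-month and 9.12 in the 1-month SmoM2 tumour, and 7.79 in the cerebellum. The tumours lay close together and above the cerebellum, at an average of 9.10 ± 0.13 (SD, n = 3). Msi1 rose by 1.31 ± 0.19 (limma adjusted p = 0.0143), or 2.48-fold, with a 95% interval of 0.82 to 1.80. Without the PtchLacZ/+ tumour the difference was 1.25 and missed the threshold (limma adjusted p = 0.0615). It also missed with all 35557 probe sets of the table tested (limma adjusted p = 0.0527).

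Its relative Msi2 was at 10.34 in the PtchLacZ/+ tumour, 10.19 in the 2-month and 10.38 in the 1-month SmoM2 tumour, and 10.42 in the cerebellum. The 4 arrays spanned a narrow range. The tumours averaged 10.30 ± 0.10 (SD, n = 3), and the difference of -0.12 ± 0.18 did not pass (limma adjusted p = 0.749, 95% interval -0.57 to 0.34). The Msi1 interval lies above the Msi2 interval. The difference between the 2 genes was not itself tested.

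Fabp7 was at 9.71 in the PtchLacZ/+ tumour, 10.22 in the 2-month and 9.94 in the 1-month SmoM2 tumour, and 9.32 in the cerebellum. Each tumour lay above the cerebellum, the PtchLacZ/+ tumour least. The tumours averaged 9.96 ± 0.25 (SD, n = 3), and the difference of 0.64 ± 0.25 did not pass (limma adjusted p = 0.165, 95% interval 0.01 to 1.28). The cerebellum's own level of Fabp7 was above the lower quartile of its array.

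Fut4 was at 4.63 in the PtchLacZ/+ tumour, 5.10 in the 2-month and 4.85 in the 1-month SmoM2 tumour, and 4.44 in the cerebellum. All 4 levels lay under the lower quartile of their array and are not shown to be above background, so no fold is given. The measured difference of 0.42 ± 0.24 did not pass (limma adjusted p = 0.336).

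Prom1 was at 6.67 in the PtchLacZ/+ tumour, 6.81 in the 2-month and 5.85 in the 1-month SmoM2 tumour, and 7.27 in the cerebellum. The cerebellum was highest and the 1-month SmoM2 tumour lowest. The tumours averaged 6.44 ± 0.52 (SD, n = 3), the widest spread of the 6 genes. The difference of -0.82 ± 0.41 did not pass (limma adjusted p = 0.274), and its 95% interval of -1.89 to 0.24 includes no change. Without the 1-month SmoM2 tumour the difference was -0.53 (limma adjusted p = 0.266). The age-matched arrays differed by -0.45.

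**Figure D1:**
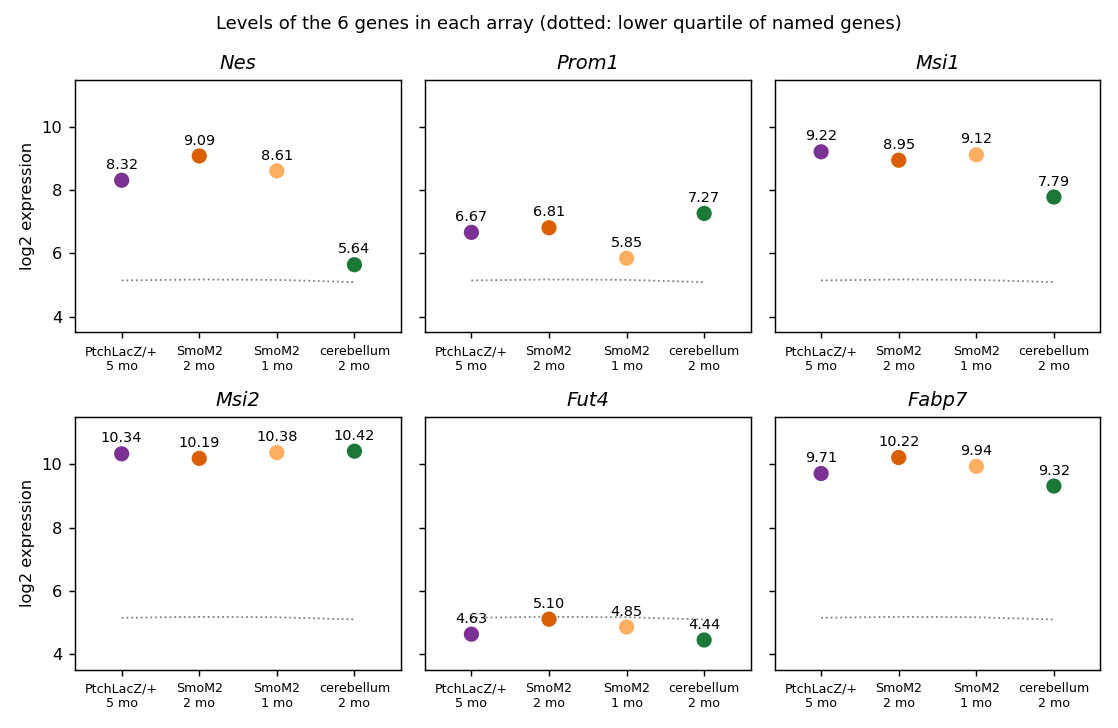
Log2 expression of the 6 genes (vertical axis) in each of the 4 arrays (horizontal axis, 1 point per array), with the lower quartile of named genes in each array as a dotted line. Nes is between 8.32 and 9.09 in the tumours and at 5.64 in the cerebellum, and Fut4 lies under the dotted line in every array; heights are not comparable between genes.

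**Figure D2:**
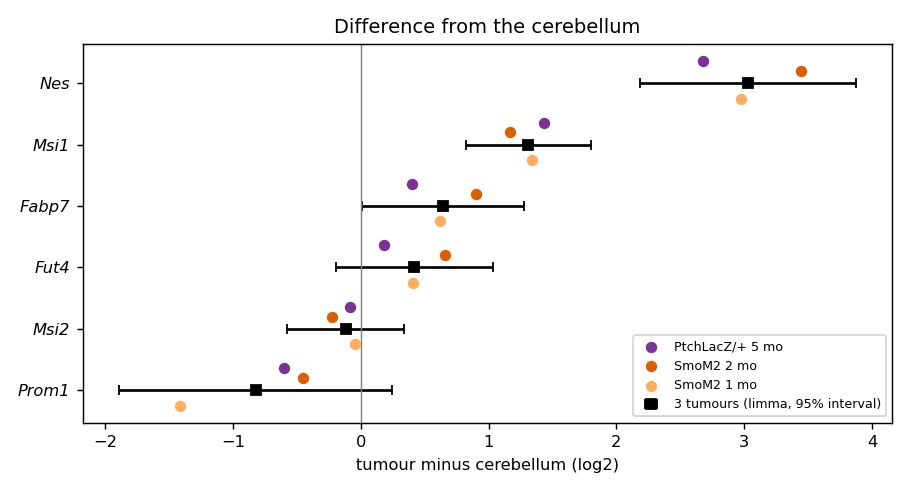
Difference of each tumour (coloured points) and of the 3 tumours together (black squares with limma's 95% interval) from the cerebellum, in log2 units. The intervals of Nes (2.19 to 3.87) and Msi1 (0.82 to 1.80) lie above 0 and passed the test, while that of Fabp7 (0.01 to 1.28) did not pass after adjustment.

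In 4 of the 6 genes all 3 tumours lay above the cerebellum and in 2 all lay below. Over all genes the tumours lay on the same side in 70.2%, above in 38.1% and below in 32.0%. Profiles over the 4 arrays, each centred on its own mean, were compared for the members other than Fut4, whose levels are not shown to be above background. The smallest distance was that of Msi1 and Fabp7 (0.80), nearly tied with Msi2 and Fabp7 (0.81), and the largest that of Nes and Prom1 (3.43). The profiles were not scaled, so a distance also reflects how much each gene varied between arrays. Nes and Fabp7 had the same order of levels, from high to low: 2-month SmoM2, 1-month SmoM2, PtchLacZ/+ and cerebellum. Neighbouring tumours in these orders have no replicates of their own to set the difference against.

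The genes with the profiles nearest to each member were sought among the named genes above the median level. By this distance over 4 arrays, Nes was nearest to Fscn1 (0.17), Cybb (0.28) and Depdc1a (0.29). Msi1 was nearest to Prkx (0.06), Mapk1ip1l (0.07) and Grip1 (0.07). Prom1 was nearest to Lactb2 (0.14), Entpd6 (0.17) and Trim13 (0.17). Fabp7 was nearest to Eef1d (0.03), Jam3 (0.06) and Psmb6 (0.08), and Msi2 to Ppcdc (0.02), Ppp1r12c (0.03) and Papolg (0.03). The genes nearest to Fut4 were Prpsap1, Zfp324 and Tmed10, but its own levels are not shown to be above background, so no distance is given. Fscn1, which encodes the actin-bundling protein fascin, was at 10.33 in the PtchLacZ/+ tumour, 11.33 and 10.76 in the SmoM2 tumours at 2 months and 1 month, and 7.70 in the cerebellum. It rose by 3.11 on the log2 scale (limma adjusted p = 0.0108). With only 4 arrays such neighbours are a description. Their distances are not comparable between members, since a gene that varies little has close neighbours more readily.

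Other genes used to mark neural stem cells and radial glia moved in both directions. Of 19 measured, 7 rose, 1 fell and 11 did not pass, with a median difference of 0.68. Cd24a, a surface glycoprotein gene of immature neural cells, rose by 4.07 ± 0.25 (limma adjusted p = 0.00335). Melk, a kinase gene of dividing progenitors, rose by 3.86 ± 0.26 (limma adjusted p = 0.00376). Slc1a3, the glutamate transporter gene of radial and Bergmann glia, was the 1 gene that fell. It was at 10.58 in the PtchLacZ/+ tumour, 10.83 and 10.69 in the SmoM2 tumours at 2 months and 1 month, and 11.80 in the cerebellum, and fell by 1.10 (limma adjusted p = 0.0220), but missed without the PtchLacZ/+ or the 1-month SmoM2 tumour (limma adjusted p = 0.0918 and 0.0617), with all probe sets tested (0.0678) and with the models as separate groups (0.0619).

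The intermediate filament genes split. Of 12, 2 rose, 3 fell and 7 did not pass, with a median of -0.06. Lmnb1, the nuclear lamin B1 gene, rose by 3.29 ± 0.20 (limma adjusted p = 0.00335). Vim encodes vimentin, with which nestin assembles, and was at 11.12 in the PtchLacZ/+ tumour, 11.98 and 11.30 in the SmoM2 tumours at 2 months and 1 month, and 10.05 in the cerebellum. Its difference of 1.42 ± 0.37 did not pass (limma adjusted p = 0.0665), and passed without the 2-month SmoM2 tumour (limma adjusted p = 0.00534). The neurofilament genes Nefl and Nefm fell by 3.53 and 3.47 (limma adjusted p = 0.00417 and 0.00335).

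Some relatives of Fut4 can make the same carbohydrate, and others add fucose elsewhere. Of 8 other fucosyltransferase genes, which include both kinds, 1 fell, 7 did not pass and the median difference was -0.01. Fut9, the main Lewis x enzyme gene of mouse brain, was at 8.70 in the PtchLacZ/+ tumour, 8.21 and 8.67 in the SmoM2 tumours at 2 months and 1 month, and 9.66 in the cerebellum. All 3 tumours lay below the cerebellum. It fell by 1.14 (limma adjusted p = 0.0463) but missed the threshold in 7 of 10 alternatives (limma adjusted p = 0.0541 to 0.117), among them without the PtchLacZ/+ tumour (0.0975) and without the 1-month SmoM2 tumour (0.0717). Fut10 and Fut11 differed by 0.82 and 0.61 and Fut8, which adds the core fucose of N-glycans, by -0.60, and none of these passed (limma adjusted p = 0.129, 0.102 and 0.203). Fut10 and Fut11 passed without the 2-month SmoM2 tumour (limma adjusted p = 0.0482 and 0.0498), while with the mean of all its probe sets Fut11 differed by 0.19 (limma adjusted p = 0.602). Fut7, the enzyme gene of leukocyte selectin ligands, was above the lower quartile in the PtchLacZ/+ array alone, so no difference is given. Fut2 differed by -0.28, Pofut1 by 0.22 and Pofut2 by -0.14.

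The fatty acid-binding protein genes of the brain moved apart. Fabp5 had a level of 9.52 in the PtchLacZ/+ tumour, 10.37 and 9.64 in the SmoM2 tumours at 2 months and 1 month, and 7.89 in the cerebellum, and rose by 1.95 ± 0.37 (limma adjusted p = 0.0296). Fabp3, the form of mature neurons, was at 6.38, 6.44 and 6.48 in the same tumours and 9.25 in the cerebellum. It fell by 2.82 on the log2 scale (limma adjusted p = 0.00335). Fabp4, known from fat cells and vessels, differed by 0.15 at levels under the lower quartile in every array, and the retinoic acid-binding protein genes Crabp1 and Crabp2 by 0.45 and -0.34, none of which passed. Fabp5 did not pass with all probe sets of the table tested (limma adjusted p = 0.0902).

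**Figure D3:**
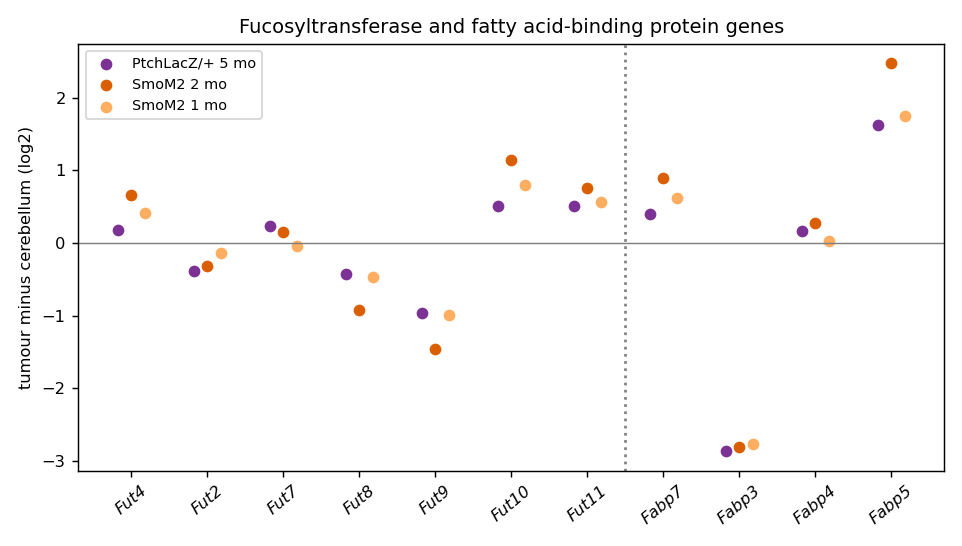
Difference of each tumour from the cerebellum (vertical axis, log2) for Fut4, Fabp7 and their relatives, 1 point per tumour. Fut9 lies below 0 and Fabp5 above 0 in all 3 tumours, Fabp3 lies near -2.82, and the levels of Fut4 and Fabp4 in every array, and of Fut7 in all but the PtchLacZ/+ array, were under the lower quartile.

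Among genes of membrane protrusions, 2 of 5 rose and 3 did not pass. Ezr, which encodes the membrane-actin linker ezrin, rose by 2.50 ± 0.42 (limma adjusted p = 0.0211). Prom2, the relative of Prom1, was at 5.41 in the PtchLacZ/+ tumour, 5.81 and 5.65 in the SmoM2 tumours at 2 months and 1 month, and 6.30 in the cerebellum. Its difference of -0.68 ± 0.22 did not pass (limma adjusted p = 0.109), and passed without the 2-month SmoM2 tumour (limma adjusted p = 0.0237). Of 4 measured genes listed here as possible Musashi targets, 2 rose, and binding to their transcripts was not measured. Robo3, which did not pass, lay under the lower quartile in the PtchLacZ/+ and cerebellum arrays. Dcx, the doublecortin gene of migrating neurons, rose by 3.94 ± 0.59 (limma adjusted p = 0.0159), and Numbl rose by 1.06 ± 0.21 (limma adjusted p = 0.0308). Numb, whose translation mouse Musashi1 represses, differed by -0.76 ± 0.23 and did not pass (limma adjusted p = 0.0976), but passed without the 2-month SmoM2 tumour (limma adjusted p = 0.0482). Numbl missed without the PtchLacZ/+ or the 1-month SmoM2 tumour (limma adjusted p = 0.115 and 0.0801). With all probe sets of the table tested, Ezr, Dcx and Numbl missed the threshold (limma adjusted p = 0.0734, 0.0626 and 0.0857), and Numbl also with the tumour models as separate groups (limma adjusted p = 0.0788). Array levels of a transcript do not measure its translation.

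Cell types that share these markers were read beside them. Of 14 astrocyte and Bergmann glia markers, 8 fell, none rose and the median difference was -1.87. Their mean level was 8.58 in the PtchLacZ/+ tumour, 9.38 and 9.18 in the SmoM2 tumours at 2 months and 1 month, and 10.59 in the cerebellum. Gja1, a gap junction gene, fell by 3.05, and the aldolase gene Aldoc fell by 2.84 (limma adjusted p = 0.0375 and 0.0342), while Gfap differed by 1.17 (limma adjusted p = 0.173). Gja1 and Aldoc missed with all probe sets tested (limma adjusted p = 0.108 and 0.102). Of 8 oligodendrocyte precursor markers, 5 rose, led by C1ql1 (3.82) and the growth factor receptor gene Pdgfra (3.38), and the list's mean level was 9.13, 9.31 and 9.35 in the tumours and 7.28 in the cerebellum. Of 13 leukocyte markers 5 rose, led by Lyz2 (5.21) and Cd68 (3.17), with mean levels of 7.23, 7.14 and 6.89 in the tumours and 5.85 in the cerebellum. The part of astrocytes, Bergmann glia, precursor cells and leukocytes in the levels of the 6 genes was not tested.

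Vessel cells can also make nestin. Of 14 endothelial and mural cell markers, none rose, 1 fell and the median difference was 0.16. Their mean level was 6.76 in the PtchLacZ/+ tumour, 7.65 and 6.56 in the SmoM2 tumours at 2 months and 1 month, and 6.96 in the cerebellum, and none of the 14 lay under the lower quartile in any array. Abcc9 and Kcnj8, channel subunit genes of mural cells, differed by 0.94 and 0.65 without passing (limma adjusted p = 0.328 and 0.498). The receptor gene Tek fell by 1.07 (limma adjusted p = 0.0203) but missed without the PtchLacZ/+ or the 1-month SmoM2 tumour (limma adjusted p = 0.0804 and 0.0566), with all probe sets tested (0.0636) and with the models as separate groups (0.0732). Flt1 differed by -0.99 (limma adjusted p = 0.133), and passed as lower without the 2-month SmoM2 tumour (limma adjusted p = 0.00458). The part of vessel cells in the Nes difference was not tested. Of 9 ependymal and choroid plexus markers, whose cells can carry prominin-1, none passed and the median difference was 0.12. For Ttr the tumours lay on both sides of the cerebellum, at 10.81 (PtchLacZ/+), 4.50 (2-month SmoM2) and 11.27 (1-month SmoM2) against 6.23. The list's mean level was 6.21, 5.49 and 6.35 in the same tumours and 5.88 in the cerebellum. In the 2-month SmoM2 array 4 of the 9 were beneath the lower quartile. That number was 1, 2 and 1 in the PtchLacZ/+, 1-month SmoM2 and cerebellum arrays. The part of these cells in the Prom1 levels was not tested.

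**Figure D4:**
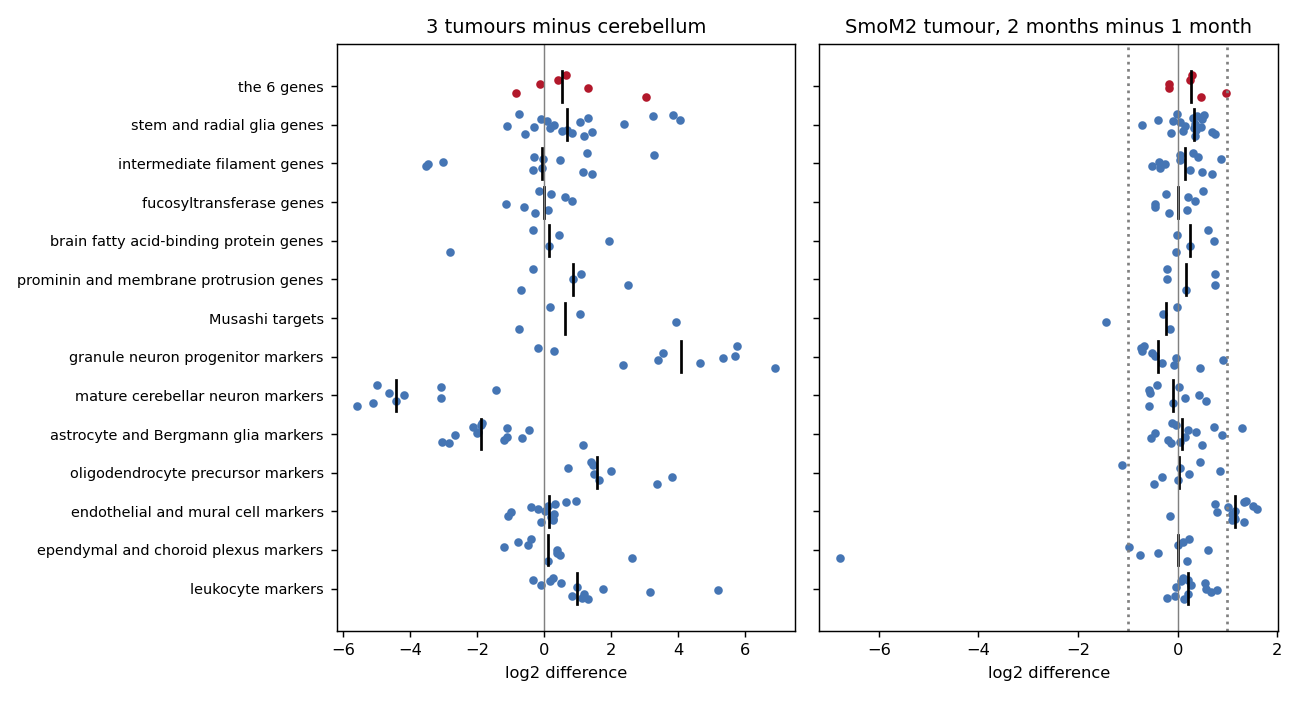
Log2 differences of the 6 genes (red) and of the genes of 13 other lists (blue), 1 point per gene, with the median of each list as a black bar: 3 tumours minus cerebellum on the left, SmoM2 tumour at 2 months minus 1 month on the right, with dotted lines at a 2-fold difference. On the left the 6 genes run from -0.82 to 3.03, and on the right 11 of 14 vessel markers lie beyond the 2-fold line and the 6 genes inside it.

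Whether the tumour models differ in these genes was asked by setting the PtchLacZ/+ tumour against both SmoM2 tumours. Genotype and age cannot be told apart here. No member passed, and limma called 0 of 19938 genes (0%), with 280 at an unadjusted p under 0.05 (1.40%). Nes differed by -0.53 ± 0.31 (95% interval -1.36 to 0.29), Fabp7 by -0.37 ± 0.28 (-1.09 to 0.36), Prom1 by 0.34 ± 0.46 (-0.86 to 1.54), Msi1 by 0.18 ± 0.26 (-0.50 to 0.86) and Msi2 by 0.05 ± 0.26 (-0.63 to 0.74). Fut4 differed by -0.35 ± 0.27, at levels not shown to be above background. For each of the 6 genes limma's adjusted p was 1.00. The PtchLacZ/+ tumour lay below both SmoM2 tumours for Nes, Fabp7 and Fut4, above both for Msi1 and between them for Prom1 and Msi2. Over all genes it lay below both in 31.1% and above both in 23.8%. The median PtchLacZ/+ minus SmoM2 difference was -0.63 for the astrocyte and Bergmann glia list and -0.48 for the vessel list, which have the same sign as those of Nes and Fabp7. That sign was not particular to them. The median was lowest for mature neurons (-1.85). It was also negative for the fatty acid-binding protein (-0.422), filament (-0.215), protrusion (-0.185), oligodendrocyte precursor (-0.155) and stem and radial glia (-0.142) lists. Medians were positive for granule progenitors (0.305), Musashi targets (0.268), leukocytes (0.182), ependymal and choroid plexus markers (0.113) and fucosyltransferases (0.0168). The part of any of these cells in the values of Nes and Fabp7 was not tested.

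The SmoM2 tumours at 2 months and 1 month had 1 array each, so their differences have no test. None of the 6 genes reached a 2-fold difference, which 3.71% of all genes did, 1.66% as higher and 2.05% as lower at 2 months. Prom1 came nearest, at 6.81 at 2 months and 5.85 at 1 month, a difference of 0.96. Nes differed by 0.47, Fabp7 by 0.28, Msi1 by -0.17 and Msi2 by -0.18, against a median of 0.08 over all genes. Fut4 differed by 0.25, at levels not shown to be above background. In the same pair of tumours, 11 of 14 vessel markers were at least 2-fold higher at 2 months, with a list median of 1.14. The part of vessel cells in the differences of Prom1 and Nes was not tested.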

How the data were processed

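Total RNA of 4 samples was hybridised to Affymetrix Mouse Gene 1.0 ST arrays. The deposited table holds log2 values for 35557 probe sets and was used as it stood. The submitters' processing notes name Affymetrix Expression Console, with version, summarisation and normalization not given in the sources used here. That the scale is log2 follows from the span of the values. Platform annotation gave a single symbol to 21789 probe sets, several to 1621 and none to 12147. Of the first, 21698 matched RefSeq (GRCm38.p6), and each of 19938 genes was read from its probe set with the highest mean.

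Differences were tested with limma 3.58.1 in R 4.3.3 (lmFit, eBayes, Benjamini-Hochberg over all genes, threshold 0.05). The fits were also run on simulated data in which a gene's noise was the same in every array. Such a run cannot check whether a single array varies as the rest do. Tumours against cerebellum left 2 residual degrees of freedom and PtchLacZ/+ against SmoM2 left 1, with the single array taken to vary as the rest do. The number of arrays limits the precision. The members and 13 further lists (130 of 136 entries measured) were chosen with earlier results of these data known. Named genes were the members, 3 nearest profiles for each, the 2 largest differences per direction in each list, all fucosyltransferase and fatty acid-binding protein genes and the design's genes. Alternatives were quantile normalization, median centring, a level filter, averaged probe sets, a trended prior, all probe sets, separate tumour models and leaving out each tumour.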

Additional observations from a re-analysis of the deposited data

Results flagged for a closer look

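Ptch1, the gene of the lacZ allele, was 0.43 lower than the cerebellum in the PtchLacZ/+ tumour (-0.43) and higher in the SmoM2 tumours at 2 months (1.32) and 1 month (1.64). It stands out because the tumour models lay on opposite sides of the cerebellum. Whether the probe set lies within the part the lacZ allele replaces was not determined, so it does not check the genotype. The microglial gene Tmem119, of the leukocyte list, likewise differed from the cerebellum by 0.15 in the PtchLacZ/+ tumour and by -0.07 and -0.35 in the SmoM2 tumours at 2 months and 1 month. Neither difference between models was tested against the cerebellum's own spread, since there was 1 cerebellum. The search covered only the 6 members and 71 other named genes. Listed genes outside it could lie on opposite sides too, as did Clic6 of the choroid plexus list. That gene differed from the cerebellum by -0.32 in the PtchLacZ/+ tumour and by 1.07 and 0.46 in the SmoM2 tumours at 2 months and 1 month.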

How the results depend on the processing

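Of 126 values of the 6 genes under alternatives, 123 kept their direction and their side of the threshold or moved by less than the spread between tumours. That count overstates the stability of PtchLacZ/+ against SmoM2. With a SmoM2 tumour left out there, the shift is always smaller than the spread between the SmoM2 tumours, so none could count as moved. Prom1 went from 0.34 to -0.15 without the 1-month SmoM2 tumour, and Msi2 from 0.05 to -0.04 without the 2-month one. Nes passed in all 10 alternatives of tumours against cerebellum (limma adjusted p = 0.000795 to 0.0383). Msi1 kept a difference of 1.25 to 1.39 but missed the threshold with all probe sets tested (1.31) and without the PtchLacZ/+ tumour (1.25). Msi2 at 2 months minus 1 month was -0.31 after quantile normalization, against -0.18 as deposited. Prom1 and Fut4 lie under the median level and have no value in the level filter. The 3191 genes called in tumours against cerebellum became 1616 with all probe sets tested, 1951 with the models as separate groups, and 1565 to 6010 with a tumour left out (1565 without the PtchLacZ/+, 2284 without the 1-month and 6010 without the 2-month SmoM2 tumour). In PtchLacZ/+ against SmoM2, 0 genes were called, against 4 among genes above the median level and 1 with a trended prior. Of 697 values of 71 other named genes, 636 kept direction and call, 31 lost the call, 28 gained it, and 2 turned in sign without a call: Zic1 without the 2-month SmoM2 tumour (-0.32 to 0.051 over the tumours left out) and Tmem119 without the 1-month SmoM2 tumour (-0.21 to 0.040). No paired analysis was possible because the labels give no shared replicate numbers. Without detection calls, low levels such as those of Fut4 limit what can be read.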
